A study of Mus musculus with 6 samples.

Results

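The cholesterol synthesis and SREBP2 pathway was followed through 29 genes in livers with and without Trim24. The genes were chosen by symbol from knowledge of the pathway, with earlier results of these data known. They make up 29 of the 23284 genes in the count files. They comprise 6 regulators of the pathway, 9 enzymes of the early steps up to squalene, 9 enzymes of the late steps from squalene to cholesterol, and 5 genes of sterol transport and storage. Other genes of the pathway are not analysed here. Liver RNA came from C57BL6/J mice aged 8 weeks, with 3 libraries of wild type (WT1 to WT3) and 3 of homozygous Trim24 knockout (KO1 to KO3). Trim24 encodes a cofactor of nuclear receptors of the TIF1 family, and the series title places the mice in work on hepatic lipid accumulation and liver cancer. How the allele was made, and whether the replicates were separate mice, is not stated in the labels, so each p-value measures the spread between these libraries.

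Hepatocytes make cholesterol from acetyl-CoA through mevalonate, isoprenoid diphosphates, squalene and a series of sterol intermediates. The transcription factor SREBP2 raises the genes of this chain when sterols in the endoplasmic reticulum run low. In that state the escort protein SCAP carries SREBP2 to the Golgi, where a pair of proteases releases its active part, whereas INSIG proteins hold SCAP back when sterols are plentiful. SREBP1, a relative that is also escorted by SCAP, acts mainly on fatty acid synthesis in liver.

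The libraries held 1495583 to 2872421 reads in genes, which were 4.22% to 6.69% of all counted reads, so the usable depth was low. Values of single libraries are listed from replicate 1 to replicate 3 throughout. Trim24 had wild type counts of 31, 45 and 44 and knockout counts of 3, 2 and 2 (log2 fold change -4.46, SE 0.39, edgeR adjusted p = 2.1e-05). Levels are given as CPM, the counts per 1000000 reads in tested genes after scaling by TMM factors. A count of 3, the limit that a count of 0 allows, equals 1.04 to 2.10 CPM in the libraries and covers counting error only. Of 8 hepatocyte markers 7 were found and none was at 0 in any library, with summed levels of 116341 to 129533 CPM in wild type and 109073, 84239 and 116372 CPM in KO1, KO2 and KO3. The 20 pancreatic acinar genes summed to 12.5 to 39.8 CPM in wild type, 989 CPM in KO1, 14.1 CPM in KO2 and 655 CPM in KO3. Of these genes 8, 12 and 17 were at 0 in the wild type libraries and 2, 14 and 2 in the knockout libraries, with Prss1 and Amy2a5 at 0 throughout. KO1 and KO3 thus held pancreatic transcripts, and results are also given with KO2 as the only knockout library.

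The comparison of the genotypes asked where along the pathway the knockout livers differ. Of the 29 genes, 28 passed the filter on low counts, and 7 of them were lower in the knockout at an edgeR quasi-likelihood adjusted p under 0.05 over all 9180 tested genes. These were the regulators Scap and Insig2, the late enzymes Cyp51, Tm7sf2, Nsdhl and Sc5d, and the esterification enzyme Soat2. None was higher, also with DESeq2 and limma-voom, and at an unadjusted p under 0.05 edgeR gave 12 lower and 0 higher. Over all tested genes 9.97% were lower and 10.3% higher at that unadjusted p. Over all tested genes 2.65% were called lower and 3.08% higher. The median log2 fold change was -0.36 over the 28 genes and 0.01 over all tested genes. Of the 28 genes 21 had a negative fitted change, against 49.2% of all tested genes. With library totals in place of TMM factors 5 of the 28 were called lower and none higher, and 17 had a negative change. Over all genes that scaling gave 172 lower and 373 higher calls, against 243 and 283 with TMM.

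In 8 of the 28 genes every knockout library lay below every wild type library, and in none did every knockout library lie above. Over all tested genes these patterns were seen in 12.6% and 12.4%. The 8 genes were the 7 that were called and Idi1. Of the 28 genes, 14, 18 and 11 lay below all wild type libraries in KO1, KO2 and KO3, which was 50%, 64.3% and 39.3%. The same held for 28.3%, 31.0% and 30.8% of all tested genes. KO2 was thus the lowest knockout library for this pathway and KO3 the nearest to wild type.

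**Figure D1:**
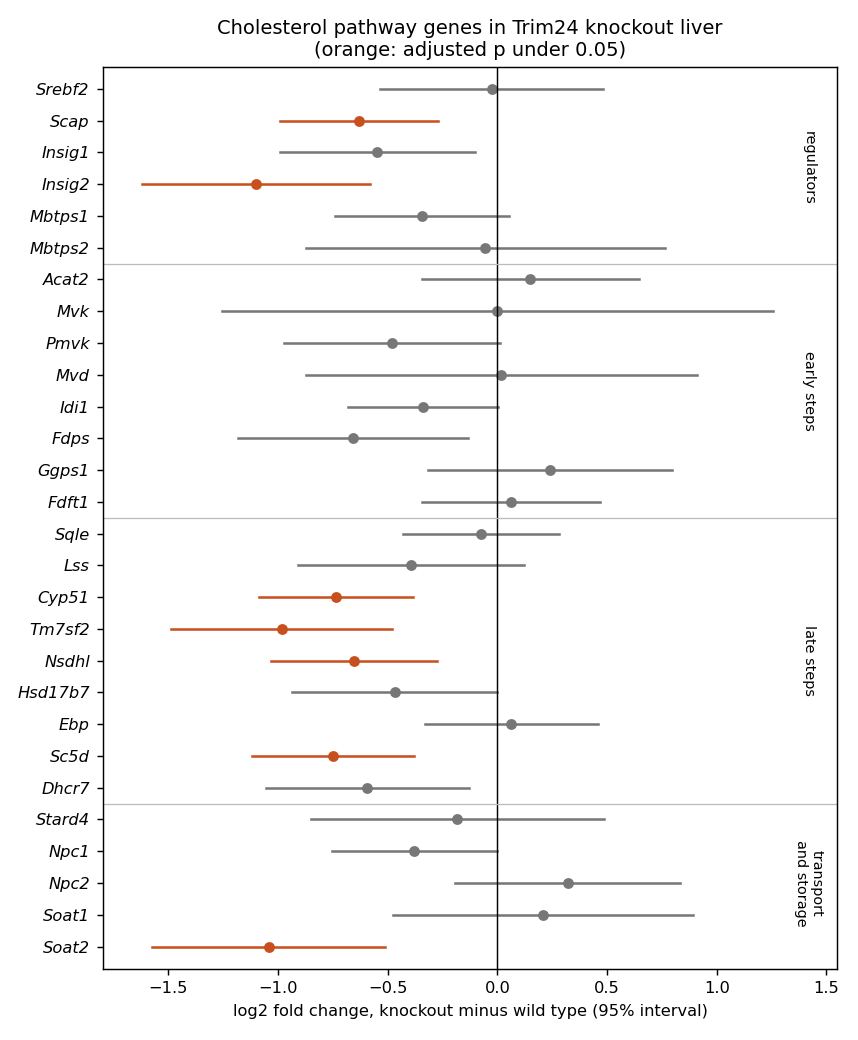
Log2 fold change of each tested pathway gene, knockout minus wild type, with its 95% interval (x axis), in pathway order and grouped by role (y axis). The 7 genes in orange passed the threshold and all lie left of 0, from -0.63 for Scap to -1.10 for Insig2, while none of the 8 tested early enzymes did.

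Among the regulators, Srebf2, which encodes SREBP2 itself, did not pass the test. Its levels were 15.4, 21.2 and 17.8 CPM in wild type and, in the knockout libraries, 16.1, 17.4 and 19.5 CPM. All 3 knockout values lay within the wild type range. The log2 fold change was -0.03 with a 95% interval of -0.53 to 0.48, on only 22 to 56 counts a library. Changes inside that interval remain possible at this depth. The interval is not adjusted for the number of genes tested, so a change somewhat outside it could also have gone uncalled.

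Scap, the escort of the SREBP proteins, fell. It stood at 137, 173 and 159 CPM in the wild type libraries, against 113, 82.5 and 107 CPM in the knockout libraries. The groups did not overlap, and KO2 was the lowest. The mean went from 156 ± 18 to 101 ± 16 CPM (± SD, n = 3 libraries per genotype). Its log2 fold change was -0.63 (SE 0.17, edgeR adjusted p = 0.043). The call was close to the threshold and held in no fit that left out a library other than KO1, with adjusted p from 0.032 to 0.16 across those fits. Scap shares exon sequence with 5830462I19Rik, a transcript on the opposite strand, and without a stated strand setting their reads cannot be told apart.

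Insig2, an anchor that retains SCAP in the endoplasmic reticulum and whose liver transcript is known to respond to feeding, fell. Its levels were 263, 439 and 237 CPM in wild type and, in the knockout libraries, 103, 169 and 164 CPM. The groups were apart, with WT2 well above the other wild type libraries. The log2 fold change was -1.10 (SE 0.24, edgeR adjusted p = 0.017), a 2.14-fold lower level. Without WT2 it was -0.78 and no longer called (adjusted p = 0.077), and with KO2 as the only knockout library it was -0.89 (adjusted p = 0.12).

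Insig1, the other INSIG gene and itself a target of SREBP2, did not pass. It was measured at 294, 296 and 372 CPM in the wild type libraries, against 180.2, 176 and 299.5 CPM in the knockout libraries. KO1 and KO2 lay below wild type, while KO3 lay within it. The log2 fold change was -0.55 (SE 0.21, edgeR adjusted p = 0.15). Without KO3 it was -0.85 and was called (adjusted p = 0.019). Mbtps1, the protease of the first cut of SREBP, was at 44.4 ± 6.5 CPM, against 35.2 ± 2.3 CPM in the knockout (log2 fold change -0.34, SE 0.18, edgeR adjusted p = 0.32). Mbtps2, the protease of the second cut, was at 12.6 ± 3.2 and 12.2 ± 7.1 CPM and shares exon sequence with Yy2 on the same strand. Of the 6 regulators 2 were thus called lower and none higher, against 2.65% and 3.08% of all tested genes. The median log2 fold change of the regulators was -0.45.

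None of the 8 tested early enzymes passed, in either direction, and their median log2 fold change was 0.01. Acat2, Mvk, Pmvk, Mvd and Ggps1 had only 5 to 114 counts a library, against 75 to 1152 for the late enzymes that were called. Changes in these genes were thus harder to detect. The better counted Idi1, Fdps and Fdft1 had log2 fold changes of -0.34, -0.66 and 0.06. At an unadjusted p under 0.05 edgeR gave 1 of the 8 (Fdps), against 20.3% of all tested genes in either direction, and DESeq2 and limma-voom also called 0 of the 8. Hmgcs1, which makes HMG-CoA, is listed at 0 in every library and was not tested. Acat2, which joins acetyl-CoA units at the entry of the pathway, was at 30.5 ± 7.9 CPM in wild type liver and 33.8 ± 6.0 CPM without Trim24. Its near-identical relative Acat3 held more reads, at 362 ± 60 and 369 ± 57 CPM, and reads could be split between them in the counting. The mevalonate kinase gene Mvk had 13.2 to 20.2 CPM in wild type and 16.7, 7.60 and 24.4 CPM in KO1, KO2 and KO3, so the knockout libraries spread to both sides. Pmvk, the next kinase, was at 28.5 ± 3.6 and 20.0 ± 4.1 CPM, with a 95% interval of the log2 fold change from -0.97 to 0.01. Mvd, the decarboxylase that follows, had only 5 to 25 counts a library, at 6.87 ± 3.09 and 6.82 ± 2.24 CPM.

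The isomerase gene Idi1 and the farnesyl diphosphate synthase gene Fdps had the lowest unadjusted p of the early enzymes. Idi1 shares exon sequence with Gm48574 on the opposite strand, and Fdps with the protein-coding gene Gm43738 on the same strand. Idi1 was at 332, 317 and 371 CPM in wild type and, in the knockout libraries, 286, 226 and 294 CPM. Its groups were apart by a small margin, with a log2 fold change of -0.34 (SE 0.16, edgeR adjusted p = 0.25). Fdps was at 280.1, 226 and 322 CPM in the wild type libraries, against 168, 109 and 246 CPM in the knockout libraries. KO3 lay above WT2, and the log2 fold change was -0.66 (SE 0.24, edgeR adjusted p = 0.14). Without KO3 it was -1.0 and was called (adjusted p = 0.026), and with KO2 as the only knockout library it was -1.35 (adjusted p = 0.0050).

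Beyond farnesyl diphosphate the branches lead to geranylgeranyl diphosphate and to squalene. Ggps1, which makes geranylgeranyl diphosphate, was at 14.4 ± 2.2 and 17.3 ± 3.3 CPM, and it shares exon sequence with Arid4b on the opposite strand. Fdft1, the squalene synthase, was at 144, 117 and 154 CPM in wild type and, in the knockout libraries, 136, 113 and 182 CPM. Its groups overlapped widely, with a 95% interval of the log2 fold change from -0.34 to 0.47. Fdft1 shares exon sequence with the cathepsin gene Ctsb on the opposite strand, which was measured at 508 ± 50.8 and 653 ± 64.1 CPM.

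Of the 9 late enzymes 4 fell and none rose, against 2.65% and 3.08% of all tested genes. A negative fitted change was seen in 8 of the 9 (median log2 fold change -0.59), against 49.2% of all tested genes. The 4 carry out steps that follow the closing of the sterol rings. Cyp51, the lanosterol demethylase, was at 285, 253 and 261 CPM in the wild type libraries, against 174, 128 and 177 CPM in the knockout libraries. The highest knockout library was far below the lowest wild type one. The mean went from 267 ± 16 to 159.8 ± 27.6 CPM (log2 fold change -0.74, SE 0.16, edgeR adjusted p = 0.019). Cyp51 shares 166 exon bases with Akap9 on the opposite strand, which was at 97.8 ± 7.4 and 123 ± 13 CPM and was not called.

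Tm7sf2, a sterol reductase that acts next, was at 93.6, 130.3 and 115 CPM in wild type and, in the knockout libraries, 84.2, 40.7 and 48.7 CPM. KO1 lay just under WT1, whereas KO2 and KO3 were far lower. The log2 fold change was -0.98 (SE 0.23, edgeR adjusted p = 0.026). Nsdhl, a dehydrogenase in the removal of the methyl groups, was at 108, 106 and 134 CPM in the wild type libraries, against 87.9, 59.2 and 75.5 CPM in the knockout libraries. The groups were apart, with a log2 fold change of -0.65 (SE 0.18, edgeR adjusted p = 0.046). Tm7sf2 shares exon sequence with Vps51 on the same strand, while Nsdhl shares none with another annotated gene.

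Sc5d, the desaturase near the end of the chain, was at 550.4, 534 and 684 CPM in wild type and, in the knockout libraries, 392, 287 and 374 CPM. Every knockout library was lower than every wild type library, with KO2 again the lowest. The mean went from 589.6 ± 82.2 to 351 ± 56 CPM (log2 fold change -0.75, SE 0.17, edgeR adjusted p = 0.022). The difference was 1.68-fold.

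**Figure D2:**
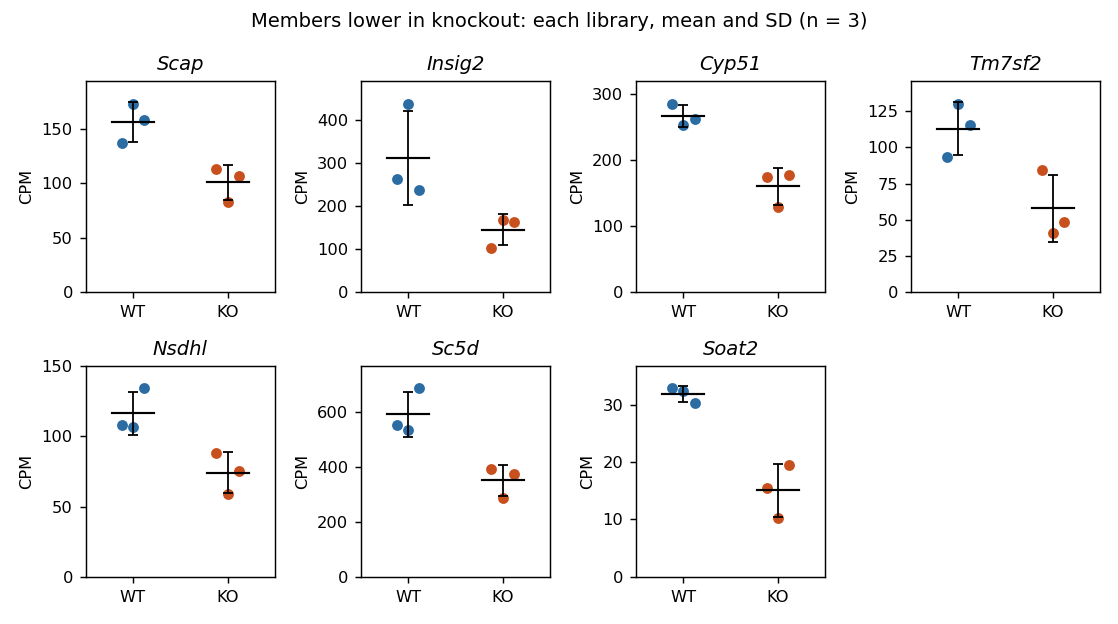
CPM (y axis, from 0) in each wild type (blue) and knockout (orange) library for the 7 genes that passed the threshold, with the mean and SD of 3 libraries in black. In each panel all knockout points lie under all wild type points, most narrowly for Tm7sf2, where KO1 was at 84.2 CPM and WT1 at 93.6 CPM.

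The other late enzymes did not pass. Sqle, the squalene epoxidase that opens the late part, was at 106, 119.7 and 148 CPM in the wild type libraries, against 114, 108 and 133 CPM in the knockout libraries. All 3 knockout values were inside the wild type range, and the 95% interval of the log2 fold change ran from -0.43 to 0.28. Lss, which closes the rings to lanosterol, was at 44.3 ± 9.8 and 33.2 ± 10.1 CPM, and it shares exon sequence with 4930483K19Rik on the opposite strand. Hsd17b7, which works beside Nsdhl, was at 104 ± 22 and 75.3 ± 21.5 CPM (log2 fold change -0.47, SE 0.22, edgeR adjusted p = 0.24). With KO2 as the only knockout library it was -1.05 and was called (adjusted p = 0.028). Dhcr7, the last reductase, was at 33.5, 54.9 and 59.4 CPM in wild type and, in the knockout libraries, 34.1, 32.6 and 32.0 CPM. The knockout libraries were close to each other and WT1 lay among them (log2 fold change -0.59, SE 0.22, edgeR adjusted p = 0.13). Without WT1 it was -0.80 and was called (adjusted p = 0.046).

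Ebp, the sterol isomerase between Nsdhl and Sc5d in the chain, was the late enzyme with a positive fitted change. It was at 356, 269 and 306 CPM in the wild type libraries, against 297, 268 and 406 CPM in the knockout libraries. KO3 was the highest library of all and KO2 was level with WT2. The log2 fold change was 0.06, with a 95% interval of -0.33 to 0.46. This interval holds none of the fitted values of the 4 late enzymes that fell, but it overlaps the interval of Nsdhl (-1.03 to -0.27). The difference between Ebp and those genes was not tested.

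The sequence just before the start site of the 4 late enzymes that fell is shown because these genes fell together. Each line gives the 150 bases before the RefSeq start on GRCm38.p6, 5′ to 3′ on the strand of the gene. Capitals mark the NF-Y box CCAAT, which reads ATTGG on the other strand, the GC box GGGCGG, which reads CCGCCC there, and the E-box, which is CACGTG on both. NF-Y and the GC box factor Sp1 are known partners of SREBP proteins at promoters. The windows lie at chr5:4104698-4104847 (minus strand) for Cyp51, chr19:6067851-6068000 (minus) for Tm7sf2, chrX:72918371-72918520 (plus) for Nsdhl and chr9:42264301-42264450 (minus) for Sc5d.
Cyp51: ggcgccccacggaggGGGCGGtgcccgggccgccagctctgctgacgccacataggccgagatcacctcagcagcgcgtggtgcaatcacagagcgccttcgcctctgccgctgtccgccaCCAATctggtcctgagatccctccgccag
Tm7sf2: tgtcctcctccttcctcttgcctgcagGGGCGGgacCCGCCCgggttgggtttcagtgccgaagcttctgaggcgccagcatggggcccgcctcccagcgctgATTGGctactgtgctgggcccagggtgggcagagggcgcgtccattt
Nsdhl: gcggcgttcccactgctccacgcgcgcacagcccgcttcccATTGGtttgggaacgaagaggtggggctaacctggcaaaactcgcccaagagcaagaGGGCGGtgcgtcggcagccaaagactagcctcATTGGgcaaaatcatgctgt
Sc5d: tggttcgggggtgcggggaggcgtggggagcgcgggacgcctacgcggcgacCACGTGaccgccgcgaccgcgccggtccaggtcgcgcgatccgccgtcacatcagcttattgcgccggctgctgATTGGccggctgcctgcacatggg

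In these windows the NF-Y box began 29 bases before the start in Cyp51, 47 in Tm7sf2, 109 and 20 in Nsdhl and 24 in Sc5d. A GC box was seen in Cyp51, Tm7sf2 and Nsdhl, and an E-box in Sc5d. In the full RefSeq windows of 300 bases (250 before to 50 after the start), 23 of the 29 genes had an entry. Of these 23 genes, 19 held an NF-Y box, which was 82.6% against 41.1% of all 27025 genes with a window. Those 27025 genes were not limited to the 9180 tested in liver, whereas 28 of the 29 pathway genes were tested. Shares among tested genes only were not taken, so a trait of expressed genes cannot be told from one of the pathway. A GC box was in 20 of the 23 (87.0% against 38.2%) and an E-box in 5 (21.7% against 8.09%). The sterol element core TCACNCCAC was in 1 of the 23, Hmgcs1, against 1.44% of all genes. Only exact matches to these letters were counted, so this does not show that the other genes lack a sterol element. Both strands were searched, a gene counted if any of its windows matched, and no matches overlap in the windows printed above. A match is not a measured binding site. The NF-Y and GC boxes were in early enzymes that did not pass the test (Idi1, Mvk and Mvd) as well as in the late enzymes that fell.

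Of the 5 genes of transport and storage 1 was called lower and none higher, against 2.65% and 3.08% of all tested genes. Soat2, the enzyme of hepatocytes that esterifies cholesterol for storage and secretion, fell. It was at 32.8, 32.4 and 30.3 CPM in wild type and, in the knockout libraries, 15.5, 10.3 and 19.5 CPM. The wild type libraries were within a narrow range and all knockout libraries far below it. The log2 fold change was -1.04 (SE 0.25, edgeR adjusted p = 0.025), a 2.06-fold lower level on 19 to 56 counts a library. Soat1, the enzyme of macrophages and most other cells for the same reaction, was at 13.0 ± 4.6 and 15.2 ± 4.2 CPM, with a 95% interval of the log2 fold change from -0.47 to 0.89.

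The genes of lysosomal sterol export did not pass. Npc1, the membrane protein of that step, was at 107, 137 and 166 CPM in the wild type libraries, against 111, 109.6 and 96.4 CPM in the knockout libraries (log2 fold change -0.38, SE 0.17, edgeR adjusted p = 0.24). It shares exon sequence with Rmc1 on the opposite strand. Npc2, its soluble partner, was at 27.4 ± 5.5 and 34.8 ± 8.2 CPM (log2 fold change 0.32, SE 0.24, edgeR adjusted p = 0.50). Stard4, a carrier of sterols in the cytosol, was at 67.8, 21.2 and 42.2 CPM in WT1, WT2 and WT3, a spread wider than that of the knockout libraries at 29.8 to 43.1 CPM.

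Per length of exon the pathway covered a wide range of levels in wild type liver. On the scale of CPM per kb of GENCODE M21 exon, Ebp, Sc5d and Insig1 were the highest at 134, 121 and 104, followed by Idi1 at 97.0, Insig2 at 90.2, Fdps at 65.6 and Cyp51 at 60.4. The lowest measured genes were Mbtps2 at 1.25, Soat1 at 1.33 and Srebf2 at 2.52. From Ebp to Cyp51 each of the listed genes overlapped the next between libraries, so the order of neighbours in this list cannot be told. Genes further apart in it did not all overlap, and every wild type library of Ebp lay above every one of Idi1. In the knockout Ebp was at 140.1, Idi1 at 76.7 and Sc5d at 72.1.

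**Figure D3:**
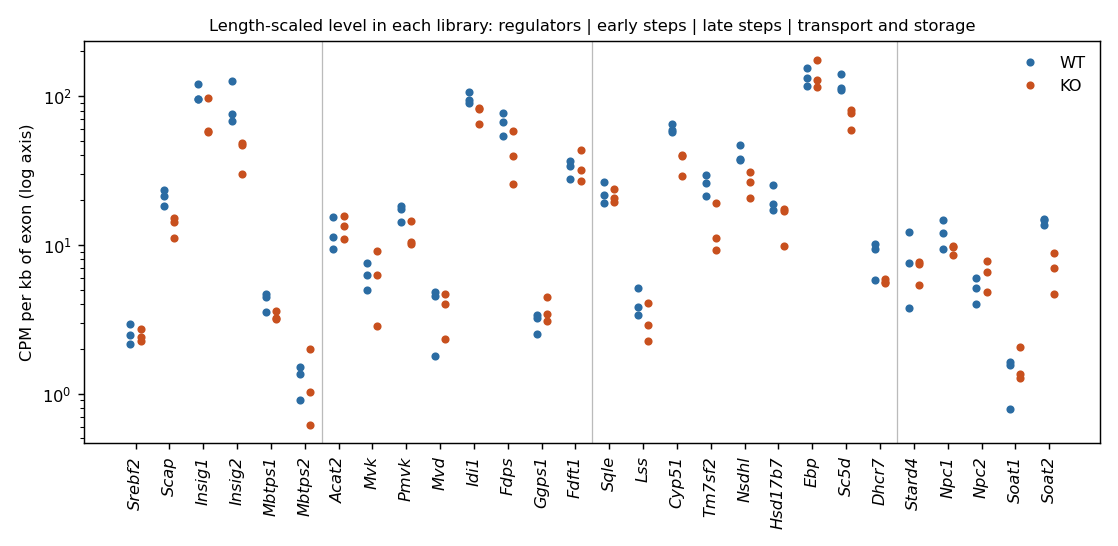
CPM per kb of exon (log y axis) in each wild type (blue) and knockout (orange) library, for the 28 tested genes in pathway order with grey lines between the 4 roles. The genes that fell include both well expressed ones, such as Sc5d at 121 in wild type, and weaker ones, such as Soat2 at 14.4, and the wild type and knockout points of Ebp, Fdft1 and Sqle overlap.

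The early and late steps were also summarised in each library, as medians over genes of the log2(CPM + 1) difference from the wild type mean. For the late enzymes the median was -0.41, -0.96 and -0.57 in KO1, KO2 and KO3, against -0.09, -0.12 and 0.22 in WT1, WT2 and WT3. For the 8 early enzymes it was at the wild type mean in KO1, -0.52 in KO2 and 0.21 in KO3, against 0.03, -0.25 and 0.20 in WT1, WT2 and WT3. The median of the late enzymes was thus below that of every wild type library in all 3 knockout libraries, while that of the early enzymes was so in KO2 only. In summed level the late enzymes went from 1592 to 1892 CPM in wild type to 1300.4, 998 and 1379 CPM in KO1, KO2 and KO3. The early enzymes went from 746 to 956 CPM to 686, 522 and 834 CPM, so that KO3 lay within the wild type range. The difference between early and late steps was not tested, and the low counts of genes such as Mvd, Mvk and Ggps1 enter the early medians.

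**Figure D4:**
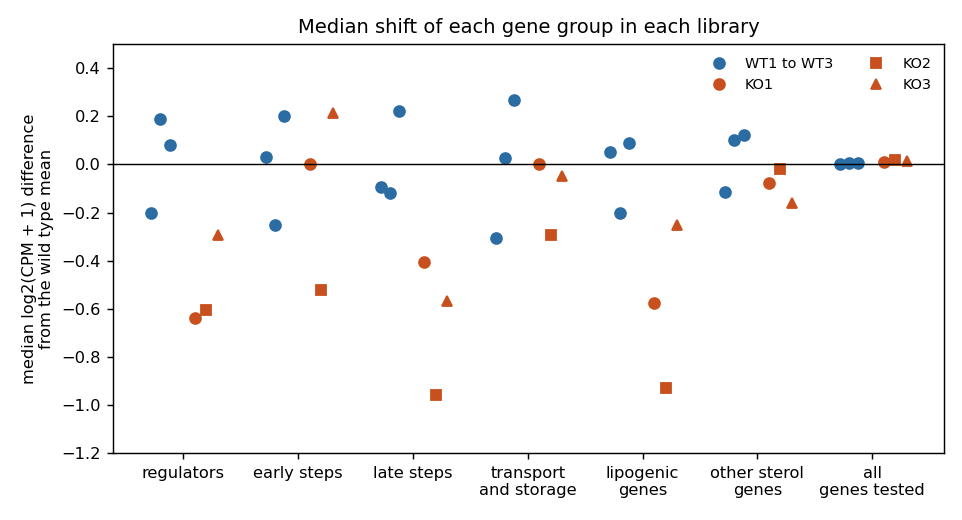
Median over genes of the log2(CPM + 1) difference from the wild type mean (y axis) for each gene group (x axis), with wild type libraries in blue and KO1, KO2 and KO3 as an orange circle, square and triangle. The late steps, the regulators and the lipogenic genes lie below wild type in all 3 knockout libraries, and KO2 is the lowest for the late steps at -0.96.

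The calls depended on single libraries. Without WT1, 4 of the genes were called lower (Insig2, Tm7sf2, Sc5d and Dhcr7), without WT2 only Sc5d, and without WT3 or KO2 only Insig2. Over all tested genes 1.49%, 1.07%, 1.0% and 1.14% were called lower in these fits. Without KO1 the same 7 genes were called, with 3.80% of all genes, and without KO3 6 were (Insig1, Insig2, Fdps, Cyp51, Sc5d and Soat2), with 1.84%. With KO2 as the only knockout library, a fit that assumes that KO2 varies like the wild type libraries, 9 were called lower, with 2.65% of all genes. These were Scap, Insig1, Fdps, Cyp51, Tm7sf2, Nsdhl, Hsd17b7, Sc5d and Soat2. Of the 7 genes 6 were thus called in this fit too, and Insig2, which was not, lay below every wild type library in KO2 as well. Acinar transcripts in KO2 were near the wild type level, and their part in the calls was not tested.

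Some markers of other liver cells also differed between the genotypes, where 2.65% of all tested genes were called lower and 3.08% higher. Of 13 tested Kupffer cell and macrophage genes 3 rose, none fell and none was at 0 in any library, and their 14 measured genes summed to 241, 440 and 337 CPM in wild type and, in the knockout libraries, 398, 739.7 and 729 CPM. KO1 lay within the wild type range. Of 8 tested stellate cell genes 2 rose and none fell, with sums of 489 to 533 CPM for wild type and 653 to 759 CPM for knockout libraries. Of 10 tested endothelial genes 2 fell (Stab2 and Ehd3) and 1 rose (Tek), with sums of 528 to 566 CPM for wild type and 461, 389.7 and 536 CPM for the knockout libraries. Neither of the 2 tested cholangiocyte genes was called. The hepatocyte markers had a median log2 fold change of -0.30 with 0 of 7 called, 2 of them at an unadjusted p under 0.05 (20.3% of all tested genes), and a median difference of -0.16, -0.40 and -0.17 in KO1, KO2 and KO3. KO2 was thus the lowest library for hepatocyte markers as for the pathway. In bulk RNA fewer cells of a type and less RNA per cell cannot be told apart, and the part of these shifts in the pathway's fall was not tested.

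Among 36 other genes of sterol handling 33 were tested, of which 3 fell and 2 rose, against 2.65% and 3.08% of all tested genes. Their median log2 fold change was 0.01. Cyb5r3, a reductase that supplies electrons to the cytochrome used by sterol oxidases, fell, with a mean of 328 ± 31 CPM in wild type liver, against 198 ± 29 CPM in the knockout (log2 fold change -0.72, SE 0.16, edgeR adjusted p = 0.019). Scarb1, the hepatic receptor for HDL, fell from 102 ± 19 to 61.3 ± 4.6 CPM (edgeR adjusted p = 0.022). Cyp27a1, the sterol hydroxylase of mitochondria, fell, with a mean of 445 ± 34 CPM in wild type liver, against 244 ± 47 CPM in the knockout (log2 fold change -0.87, SE 0.17, edgeR adjusted p = 0.0096). Cyp7b1, the oxysterol hydroxylase, rose from 625 ± 93 to 1008 ± 154 CPM (edgeR adjusted p = 0.031). Nfyb, a subunit of NF-Y, rose, with a mean of 32.0 ± 2.9 CPM in wild type liver, against 51.4 ± 7.3 CPM in the knockout (log2 fold change 0.69, SE 0.19, edgeR adjusted p = 0.044), while Nfya and Nfyc did not pass. The ligase genes Rnf139 and Syvn1 and the liver X receptor genes Nr1h2 and Nr1h3 did not pass either.

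Among 16 lipogenic genes, which stand mainly under SREBP1, 6 fell and none rose, against 2.65% and 3.08% of all tested genes. Their median log2 fold change was -0.58. The desaturase gene Scd1 had a log2 fold change of -1.71. The transcript of SREBP1 itself, Srebf1, was at 64.8 ± 32.2 and 49.2 ± 20.4 CPM and did not pass (edgeR adjusted p = 0.58). In KO1, KO2 and KO3 the median difference of the lipogenic genes was -0.57, -0.93 and -0.25, so KO2 was the lowest library and KO3 the nearest to wild type here as for the 28 genes of the cholesterol pathway at -0.26, -0.56 and -0.17.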

How the data were processed

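The deposited values were raw counts of reads for each gene symbol, not normalized, in 6 liver libraries. Per the submitters' processing notes, HTSeq, edgeR, TopHat 1.4.1 and the build mm9 were used, with no role stated, and no label states the strand setting. A file listed 23284 genes followed by 5 counter totals. Reads in no gene were 93.3% to 95.8% of counted reads and were left out, and 0 columns were unused. The counts were tested with edgeR 4.0.16 (quasi-likelihood F test, TMM, group as the only term, filterByExpr with a minimum count of 10, Benjamini-Hochberg over 9180 genes, threshold 0.05) in R 4.3.3. Standard errors were obtained by dividing the log2 change by the root of F. The procedure was tested on simulated data. Alternatives used DESeq2 1.42.0, limma 3.58.1 (voom), other scalings and filters, a threshold of 0.10, the replicate block, and libraries left out.

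Members and lists were chosen with earlier results of these data known. Full statistics were given for each called member and, in each role, for the 2 uncalled members of lowest p. GENCODE M21 (GRCm38) gave exon lengths and overlaps for all 29 symbols, which may differ from those of the gene models that were counted. Promoters came from RefSeq on GRCm38.p6. Python 3.11.15 made tables and figures.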

Additional observations from a re-analysis of the deposited data

How the results depend on the processing

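Over the 15 pathway genes given with full statistics, followed through 14 alternatives (210 values) none changed sign, 172 kept their side of the threshold, 29 lost a call and 9 gained one. These 15 genes were taken by call or lowest p from the same data, which favours a stable sign. Over all 28 tested genes the sign was less stable, with 21 negative changes with TMM factors and 17 with library totals. The number of pathway genes called lower was 7 with the size factors of DESeq2, with DESeq2, with limma-voom, with the filter of 1 CPM in 3 libraries and at the threshold of 0.10. It was 5 with library totals and 9 without a filter, and with single libraries left out it ran from 1 to 7. None was called higher in any of these fits. Over all genes, calls went from 243 lower and 283 higher to 509 and 576 without a filter and to 437 and 445 at the threshold of 0.10. With single libraries left out they ran from 95 to 363 lower and from 127 to 409 higher. The causes were not tested, other than that fewer libraries entered the latter fits. Scap was called in 7 of 14 alternatives, Nsdhl in 8, Cyp51, Tm7sf2 and Soat2 in 10 each, and Insig2 and Sc5d in 12 each. Deviations of same-numbered libraries over all tested genes correlated at -0.07, 0.08 and 0.03, and not every library correlated best with its own number. In the early enzymes the median was lowest in replicate 2 and highest in replicate 3 in both genotypes. Whether the numbers pair the libraries cannot be told from 3 libraries per genotype. With the replicate block 7 pathway genes were called, Fdps (adjusted p = 0.028) in place of Scap (adjusted p = 0.058), and 250 genes were lower and 295 higher over all genes. Low counts limit the weaker genes most, such as Mvd, Mbtps2, Soat1 and Mvk, which had at most 70 counts in any library.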

Other observations

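Hmgcs1, the gene of the HMG-CoA synthase of this pathway, was at 0 in all 6 libraries, and so were its neighbours on chromosome 13. In the gene order of RefSeq on GRCm38.p6, 9 protein-coding genes in a row that are listed in the files had a total count of 0. They were Ccl28, Hmgcs1 itself, E130304F04Rik, Zfp131, AF067063, Tcstv1, B020031M17Rik, BC147527 and Tcstv3. Whether each of them is expressed in liver was not examined. Before this run Gm7120 had a total of 8 counts, 4833420G17Rik 238 and Paip1 486. Over all genes in the files 27.0% were at 0 in every library. The level of Hmgcs1 is thus not known from these counts, and the cause of the zeros was not tested.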
